A study of Mus musculus with 4 samples.

Results

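The 14-3-3 proteins are a family of small acidic adaptor proteins, encoded in the mouse by the 7 genes Ywhab (beta), Ywhae (epsilon), Ywhag (gamma), Ywhah (eta), Ywhaq (theta, also called tau), Ywhaz (zeta) and Sfn (sigma, stratifin). The genes were chosen by name. All 7 were found by their gene name in the annotation of the array, on 16 of its 35411 rows, out of 20735 named genes. A row is one target transcript of the array design, known by its GenBank identifier, with 1 value per array. One further row lists Sfn as an older synonym of Rexo2, an oligoribonuclease, and was left out because Sfn has a row of its own.

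14-3-3 proteins work as dimers, each subunit of which holds a phosphorylated serine or threonine of a partner protein, and so keep that partner in the cytoplasm, hold it inactive or shield it from phosphatases. The Ywha gene names recall the activation of tyrosine and tryptophan hydroxylase by these proteins in brain, where they are among the most abundant in the cytosol. In T cells, the theta form is known as a partner of protein kinase C theta and Cbl below the antigen receptor, and several forms bind RAF kinases and FOXO transcription factors.

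RNA labelled as that of CD4+ T cells from spleens of FVB/N mice was measured on 4 single-colour arrays. The groups were miR-7 deficient cells labelled activated, wild type cells labelled activated, miR-7 deficient naive cells and wild type naive cells, with 1 array each. Naive cells were isolated with magnetic beads as CD4+ cells rich in CD62L, which guides lymphocytes into lymph nodes. Activation is described as 48 hours of culture with antibodies to CD3 and CD28 and with IL-2. The labels do not name the allele or loci behind the deficiency, and the file headers abbreviate it as KD. Each sample is called representative of 3 biological replicates, yet each group has 1 array, so every difference is one between 2 arrays with no replicate check, no test was run and no p-value is given.

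miR-7 is a microRNA that pairs through its seed, bases 2 to 8, with messenger RNAs. The mature forms are shown because the mice are labelled as miR-7 deficient. The labels do not say which forms are affected. RefSeq (GRCm38.p6) gives 2 sequences from 3 loci, with the shared seed in capitals here.
mmu-miR-7a-5p: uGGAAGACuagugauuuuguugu
mmu-miR-7b-5p: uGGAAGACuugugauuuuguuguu
They differ outside the seed, which is GGAAGAC in both. Whether a 14-3-3 transcript holds a match was not tested here.

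Promoter windows of 250 bases before to 50 bases after the start site were found in RefSeq (GRCm38.p6) for 5 of the 7 genes, Ywhae, Ywhag, Ywhah, Ywhaq and Sfn. All 5 are shown. Ywhag and Ywhah have rows far higher on the arrays labelled activated, and so has Ywhae on 1 of its 2 rows. Ywhaq differed less on its row with the highest mean intensity, and Sfn lay below background. Each runs 5′ to 3′ on the gene's strand. Capitals mark the letters TGACG, from the cyclic AMP response element, and GGGCGG, the GC box, on either strand.
Ywhae, chr11:75732637-75732936, plus strand: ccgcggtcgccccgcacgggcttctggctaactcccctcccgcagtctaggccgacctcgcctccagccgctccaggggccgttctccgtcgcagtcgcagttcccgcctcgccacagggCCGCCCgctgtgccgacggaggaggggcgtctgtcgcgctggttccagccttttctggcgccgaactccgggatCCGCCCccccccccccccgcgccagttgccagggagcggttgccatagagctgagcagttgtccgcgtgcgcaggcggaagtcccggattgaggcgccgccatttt
Ywhag, chr5:135934592-135934891, minus strand: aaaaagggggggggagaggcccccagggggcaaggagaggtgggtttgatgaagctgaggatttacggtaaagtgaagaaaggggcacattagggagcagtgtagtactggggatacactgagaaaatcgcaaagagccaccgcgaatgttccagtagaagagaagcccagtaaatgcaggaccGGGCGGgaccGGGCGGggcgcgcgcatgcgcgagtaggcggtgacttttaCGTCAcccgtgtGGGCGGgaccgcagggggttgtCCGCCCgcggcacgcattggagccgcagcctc
Ywhah, chr5:33018566-33018865, plus strand: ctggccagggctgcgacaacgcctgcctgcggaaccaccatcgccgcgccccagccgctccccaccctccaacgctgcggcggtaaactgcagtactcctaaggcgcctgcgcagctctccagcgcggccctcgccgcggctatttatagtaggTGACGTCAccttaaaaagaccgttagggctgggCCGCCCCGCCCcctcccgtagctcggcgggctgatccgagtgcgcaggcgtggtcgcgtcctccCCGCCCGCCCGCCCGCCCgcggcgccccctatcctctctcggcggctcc
Ywhaq, chr12:21417387-21417686, minus strand: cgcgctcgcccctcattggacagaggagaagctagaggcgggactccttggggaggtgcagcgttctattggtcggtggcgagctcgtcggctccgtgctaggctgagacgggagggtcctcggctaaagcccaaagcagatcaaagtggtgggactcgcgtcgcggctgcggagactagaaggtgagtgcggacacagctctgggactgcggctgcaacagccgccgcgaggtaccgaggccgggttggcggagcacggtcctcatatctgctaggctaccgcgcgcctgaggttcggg
Sfn, chr4:133602119-133602418, minus strand: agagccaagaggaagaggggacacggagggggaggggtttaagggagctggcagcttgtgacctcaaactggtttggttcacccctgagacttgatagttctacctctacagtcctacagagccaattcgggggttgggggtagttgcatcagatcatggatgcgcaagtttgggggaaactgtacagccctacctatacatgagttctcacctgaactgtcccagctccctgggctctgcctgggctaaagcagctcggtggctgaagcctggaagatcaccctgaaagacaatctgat
TGACG occurs in the Ywhag window, 16 bases before the start site, and in the Ywhah window, 96 bases before it, there as the full palindrome TGACGTCA, and not in that of Ywhae. It occurs in 2 of the 5 member windows and in 23.6% of 21263 windows of 17492 genes, and the full palindrome in 1 of 5 and in 2.23%. GGGCGG is in the windows of Ywhae, Ywhag and Ywhah, and in 46.2% of all windows. The windows of Ywhae, Ywhag, Ywhah and Ywhaq hold 36, 23, 38 and 30 CG dinucleotides, against a median of 13 over all windows, and that of Sfn holds 4. CCAAT is in 3 member windows (38.2% of all) and TATAAA in 1 (12.6%). These matches are letters in a window and not measured sites.

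Intensities are the authors' normalized values on a linear scale. The floor of an array, used as its background level, is the 95th percentile of its intensities on 667 rows of 619 chemosensory receptor genes (smell, pheromone and taste). It was 604 for miR-7 deficient and 720 for wild type cells labelled activated, 985 for miR-7 deficient and 984 for wild type naive cells. Values below it were set to it before a difference was taken, so a difference with 1 side below the floor is a bound, written "at least". Where such a difference went against the side above the floor, which unequal floors make possible, it was set to 0. Levels are compared between arrays for the same row, never between rows or genes. Of the 16 rows, 13 stood above the floor on at least 1 array and 8 on all 4, while 3 stood below on every array. By its row with the highest mean intensity, a gene was above the floor on at least 1 array for 6 of the 7 members and on all 4 arrays for 4.

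**Figure D1:**
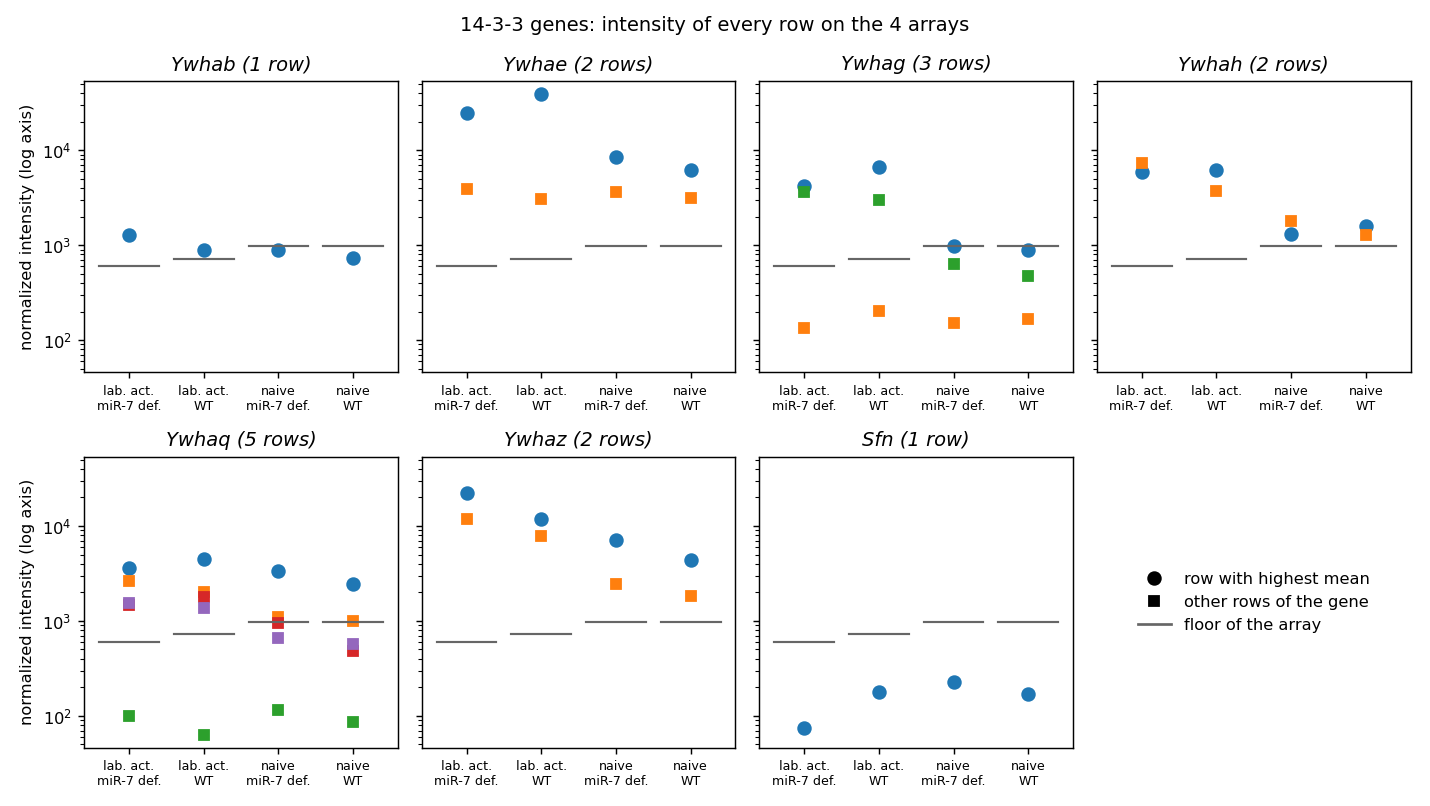
Normalized intensity (log axis) of every row of the 7 genes on the 4 arrays (lab. act., labelled activated; def., deficient); circles are the row with the highest mean of a gene, squares its other rows, and grey bars the floor of each array. Ywhag, Ywhah and Ywhaz have rows far higher on the arrays labelled activated, Ywhaq and Ywhae have rows that differ much and rows that differ little, and Sfn lies below every floor.

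The arrays go against part of their labels. The arrays labelled activated carried markers of brain cells and few of T cells. Of 12 neuron markers, 11 and 10 were above the floor in miR-7 deficient and wild type cells labelled activated, against 0 and 1 in miR-7 deficient and wild type naive cells (Thy1, which mouse T cells also use), and their summed intensity was 105126 and 72497 against 3165 and 4912. Snap25, of synaptic vesicle fusion, read 10339 and 7834 on the miR-7 deficient and wild type arrays labelled activated, against 127 and 356, below the floor, on the naive arrays. All 8 oligodendrocyte markers were above the floor on both arrays labelled activated, against 1 on each naive array, with sums of 49763 and 61485 against 2200 and 2617. Astrocyte markers had 7 and 6 of 7 above it, against 2 and 2, and sums of 16815 and 19238 against 4788 and 5900. The astrocyte markers above the naive floors, Aqp4 and Gja1, were lower on the arrays labelled activated, with log2 differences of -1.02 and -1.34 for Aqp4 and -0.26 and -0.99 for Gja1 in miR-7 deficient and wild type cells. Of 14 T cell markers, 2 and 3 were above the floor in miR-7 deficient and wild type cells labelled activated, against 12 and 10 in naive cells, with sums of 8784 and 6699 against 37072 and 29679. Of 8 B cell markers 1 and 2 were above it, against 4 and 3, with sums of 2431 and 3922 against 26697 and 16155. Of 8 myeloid markers 5 and 2 were above it, against 1 and 1, with sums of 7022 and 4338 against 3840 and 3249. No marker read 0. The T cell receptor chain Cd3e was below the floor on both arrays labelled activated. The T cell markers above it there were Tcf7 on both arrays (3643 in miR-7 deficient and 1039 in wild type cells) and 3 on 1 array. These were Lck (773) in miR-7 deficient and Cd3g (788) and Cd2 (1134) in wild type cells. The part of these other cell types in the differences below was not tested, and in RNA of whole samples, fewer cells of a type and less RNA per cell cannot be told apart. The directions below hold for arrays as labelled and not for a verified cell state.

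By the highest-mean row, the gamma, eta, zeta and epsilon genes were higher on arrays labelled activated than on naive arrays in both genotypes. Of the 6 members above the floor, Ywhae, Ywhag, Ywhah and Ywhaz were 2-fold or more higher, 4 in miR-7 deficient and 4 in wild type cells, and 0 were 2-fold lower in either. With the rows of a gene averaged these counts were 2 and 3, and the medians given next were 0.59 and 1.01. Among all genes above the floor, 11.1% were 2-fold or more higher and 14.8% lower in miR-7 deficient cells (of 5825), and 14.5% higher and 8.81% lower in wild type cells (of 5132). The median log2 difference of the members above the floor was 1.60 in miR-7 deficient and 1.70 in wild type cells, beside 0.00 in both for all genes above the floor. That 0.00 takes in genes whose difference was set to 0 at the floor step. The sign of Ywhag and Ywhab was fixed by the floor, since both were above it on the arrays labelled activated alone. Without a floor, the median over all 7 members was 1.54 and 1.43, beside -0.13 and -0.17 for all genes. The split of all genes depended on scaling. In wild type cells 62.2% of the genes 2-fold apart were higher, against 75.2% with the median difference set to 0. It was 45.6% with a lowess trend subtracted and 37.0% with both arrays quantile normalized apart from the others. In miR-7 deficient cells 42.8% were higher, against 52.0%, 40.6% and 36.3% under the same 3 settings. The 4 genes stayed 2-fold higher under each of these 3 settings in both genotypes, and Ywhaq joined them in wild type cells with the median difference set to 0 (1.02).

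Ywhag encodes 14-3-3 gamma, a form enriched in neurons. Its row with the highest mean (BC008129) read 4236 on the miR-7 deficient and 6590 on the wild type array labelled activated, against 983 on the miR-7 deficient and 888 on the wild type naive array. Both naive values lay just below their floors, so the gene was at least 4.30-fold higher in miR-7 deficient and at least 6.70-fold higher in wild type cells labelled activated. A second row (AK164356) read 3591 and 3026 on the miR-7 deficient and wild type arrays labelled activated, against 641 and 477 on the naive arrays. It was at least 3.65-fold and at least 3.08-fold higher. Both rows thus shared the direction in both genotypes. The remaining row (AK076615), from a testis clone, stayed between 133 and 201, below every floor.

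Ywhah encodes 14-3-3 eta, a form first described in brain. Its row BC008187 read 5964 in miR-7 deficient and 6227 in wild type cells labelled activated, against 1319 in miR-7 deficient and 1583 in wild type naive cells. All values were above the floor, and the gene was 4.52-fold and 3.93-fold higher on the arrays labelled activated. The other row (BC061497) read 7429 and 3732 on the miR-7 deficient and wild type arrays labelled activated, against 1818 and 1280 on the naive arrays, or 4.09-fold and 2.92-fold higher. The 2 rows shared the direction in both genotypes.

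Ywhaz encodes 14-3-3 zeta, a broadly used form with a large number of known partners. Its row BC050891 read 22059 in miR-7 deficient and 11897 in wild type cells labelled activated, against 7033 in miR-7 deficient and 4408 in wild type naive cells, which is 3.14-fold and 2.70-fold higher. The other row (AK083368), from a thymus clone, read 11914 and 7919 against 2421 and 1849, which is 4.92-fold and 4.28-fold higher. On both rows the order of the arrays was the same, with miR-7 deficient above wild type within each state.

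Ywhae encodes 14-3-3 epsilon, which prefers to pair with other family members and binds Ndel1, a regulator of dynein. Its rows disagreed. The row with the highest mean (AX775993, a patent sequence) read 24901 in miR-7 deficient and 38915 in wild type cells labelled activated, against 8545 in miR-7 deficient and 6173 in wild type naive cells, or 2.91-fold and 6.30-fold higher. The other row (BC058686) read 3925 and 3082 against 3644 and 3110, a log2 difference of 0.11 in miR-7 deficient and -0.01 in wild type cells. The 2-fold call of this gene thus rests on 1 of its 2 rows, and which row reports the main transcript was not tested.

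Ywhaq encodes the theta form, first cloned from T cells under the name tau. Its row with the highest mean (BC132252) read 3635 in miR-7 deficient and 4440 in wild type cells labelled activated, against 3348 in miR-7 deficient and 2462 in wild type naive cells. This is a log2 difference of 0.12 and 0.85, under 2-fold in both genotypes. Row AK163237 read 2624 and 2003 on the arrays labelled activated against 1102 and 995 on the naive arrays, which is 2.38-fold and 2.01-fold higher. Rows BC090838 and BC106164 were above the floor on the arrays labelled activated alone, with bounds on the log2 difference of 0.58 and 0.66 in miR-7 deficient and of 0.86 and 0.49 in wild type cells. The fifth row (BC085299) stayed between 63.5 and 114, below every floor. The gene was thus above the naive floor and no lower on the arrays labelled activated, where most T cell markers were below the floor.

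Ywhab encodes 14-3-3 beta, a known RAF partner. Its row (BC132121) read 1267 in miR-7 deficient and 897 in wild type cells labelled activated, against 883 in miR-7 deficient and 733 in wild type naive cells, both below the floor. It was at least 1.29-fold higher in miR-7 deficient cells, and the floor left no bound in wild type cells. Sfn encodes the sigma form, a p53-induced cell cycle inhibitor of epithelia that pairs with itself. Its row (BC148645) read 73.6 in miR-7 deficient and 178 in wild type cells labelled activated, against 228 in miR-7 deficient and 169 in wild type naive cells. All were below the floor, and no difference is given. Of 7 measured epithelial markers 0 were above the floor on any array.

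**Figure D2:**
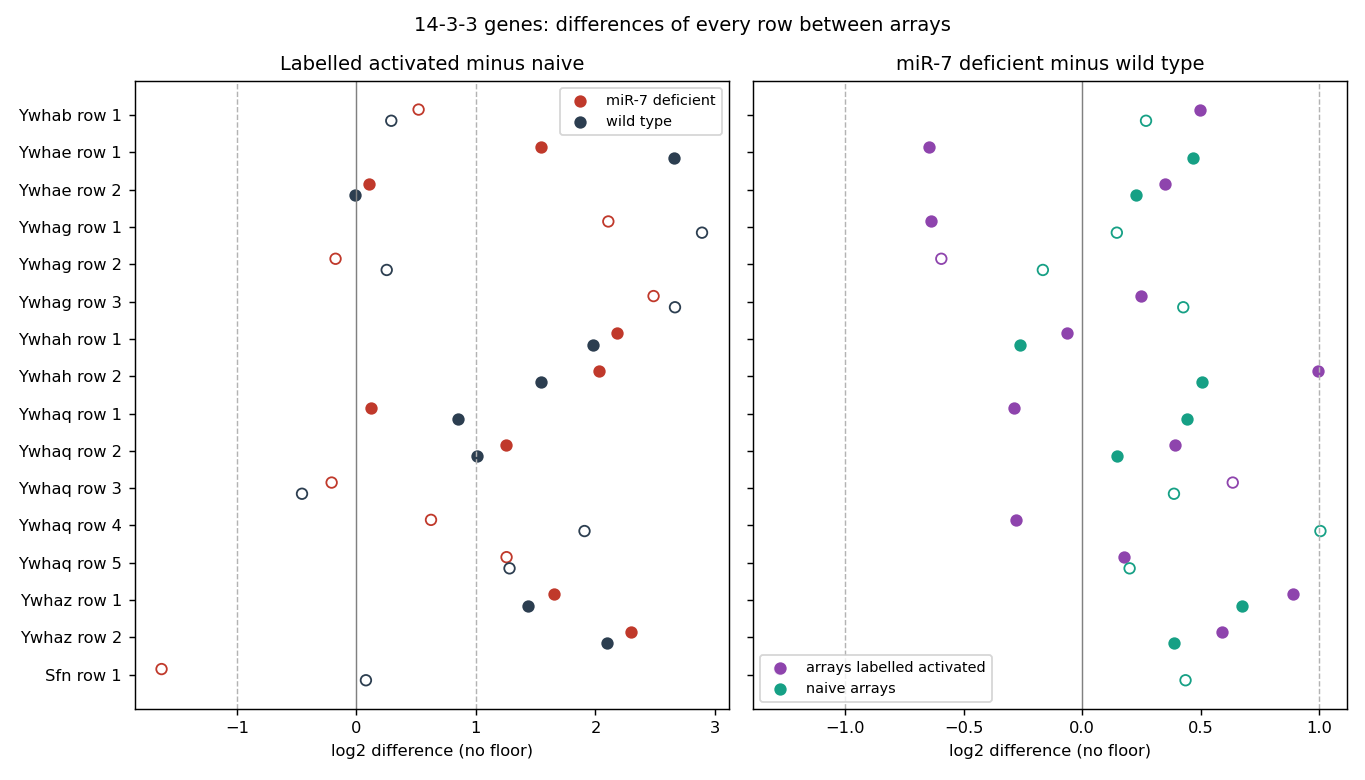
Log2 differences of every row of the 7 genes, without a floor, left between arrays labelled activated and naive arrays in each genotype and right between genotypes in each state; filled points have both arrays above the floor and open points do not. Dashed lines mark 2-fold. On the left Ywhag (rows 1 and 3), Ywhah and Ywhaz lie past 1 in both genotypes, and on the right rows of Ywhae, Ywhag, Ywhah and Ywhaq lie on opposite sides of 0.

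Between genotypes in naive cells, 3 of the 4 14-3-3 genes above the floor were higher in miR-7 deficient cells, by less than 2-fold. Of these 4 members above the floor, 0 were 2-fold apart, beside 2.83% of 3461 genes (2.02% higher and 0.809% lower), so the count of 0 is near the background. Ywhaz (0.67), Ywhae (0.47) and Ywhaq (0.44) were higher and Ywhah (-0.26) lower in miR-7 deficient cells on the log2 scale. The median of the 4 was 0.46, beside 0.13 for all genes above the floor. Of the 8 member rows above the floor on both naive arrays, 7 were higher and 1 lower. Several of these rows belong to the same gene, and the share over all rows or genes that were higher was not computed. The median of all genes above the floor was also above 0, so these counts are not read as a trait of the members. This comparison depended on scaling, since 71.4% of all genes 2-fold apart were higher, against 62.8%, 30.6% and 32.6% under the same 3 settings, and the median of all genes above the floor was 0.09, 0.03 and 0.00 under them. The members' median was then between 0.25 and 0.42, and Ywhaz, Ywhae and Ywhaq kept their sign. The rows of Ywhah disagreed, with BC061497 higher (0.51) and BC008187 lower in miR-7 deficient cells. Rows of a gene above both floors had a pooled SD of 0.34 in this comparison over 396 genes, a spread within the same arrays that is no replicate error. B cell markers moved with this comparison, with 4 against 3 of 8 above the floor and summed intensities of 26697 in miR-7 deficient and 16155 in wild type naive cells, and the T cell markers had sums of 37072 and 29679. Without a floor, 7 B cell markers were higher and 1 lower in miR-7 deficient cells, and 9 T cell markers were higher and 5 lower. Their part in the differences was not tested.

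Between genotypes in cells labelled activated, the zeta gene was the member furthest apart by the row with the highest mean, although 1 Ywhah row (0.99) was further. Ywhaz was higher in miR-7 deficient cells by 0.89 on the log2 scale (1.85-fold) on one row and by 0.59 on the other. Of 6 members above the floor, 0 were 2-fold apart, beside 4.6% of 5721 genes (2.22% higher and 2.38% lower), which is also near the background. Ywhab (0.50) was also higher, and Ywhae (-0.64), Ywhag (-0.64), Ywhaq (-0.29) and Ywhah (-0.06) were lower in miR-7 deficient cells, with a median of -0.18 beside 0.00 for all genes above the floor. That median turned to 0.30 with the rows of a gene averaged and 0.36 with their median. Those 4 directions depended on the row, and that of Ywhah also on scaling, being 0.05 with a lowess trend subtracted and 0.03 with both arrays quantile normalized apart from the others. The other rows of Ywhae (0.35), Ywhag (0.25) and Ywhah (0.99, or 1.99-fold) were higher in miR-7 deficient cells, and of the 4 rows of Ywhaq above the floor 2 were higher and 2 lower. Of the 5 members with several rows above the floor, the rows of 1 (Ywhaz) shared a direction and those of 4 did not. The pooled SD of rows of a gene was 0.35 over 859 genes. The summed neuron markers were higher on the miR-7 deficient array (summed intensity 105126 against 72497), with Slc17a7 alone at 15853 against 902. Without a floor, 9 of 12 neuron markers were higher and 3 (Gad1, Nefl and Stmn3) lower. Oligodendrocyte markers had a lower sum (49763 against 61485). So had astrocyte markers (16815 against 19238), although 5 were higher and 2 lower. Of 8 myeloid markers 5 against 2 were above the floor (sums 7022 against 4338), and of 8 B cell markers 1 against 2 (sums 2431 against 3922). Their part in the differences was not tested.

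**Figure D3:**
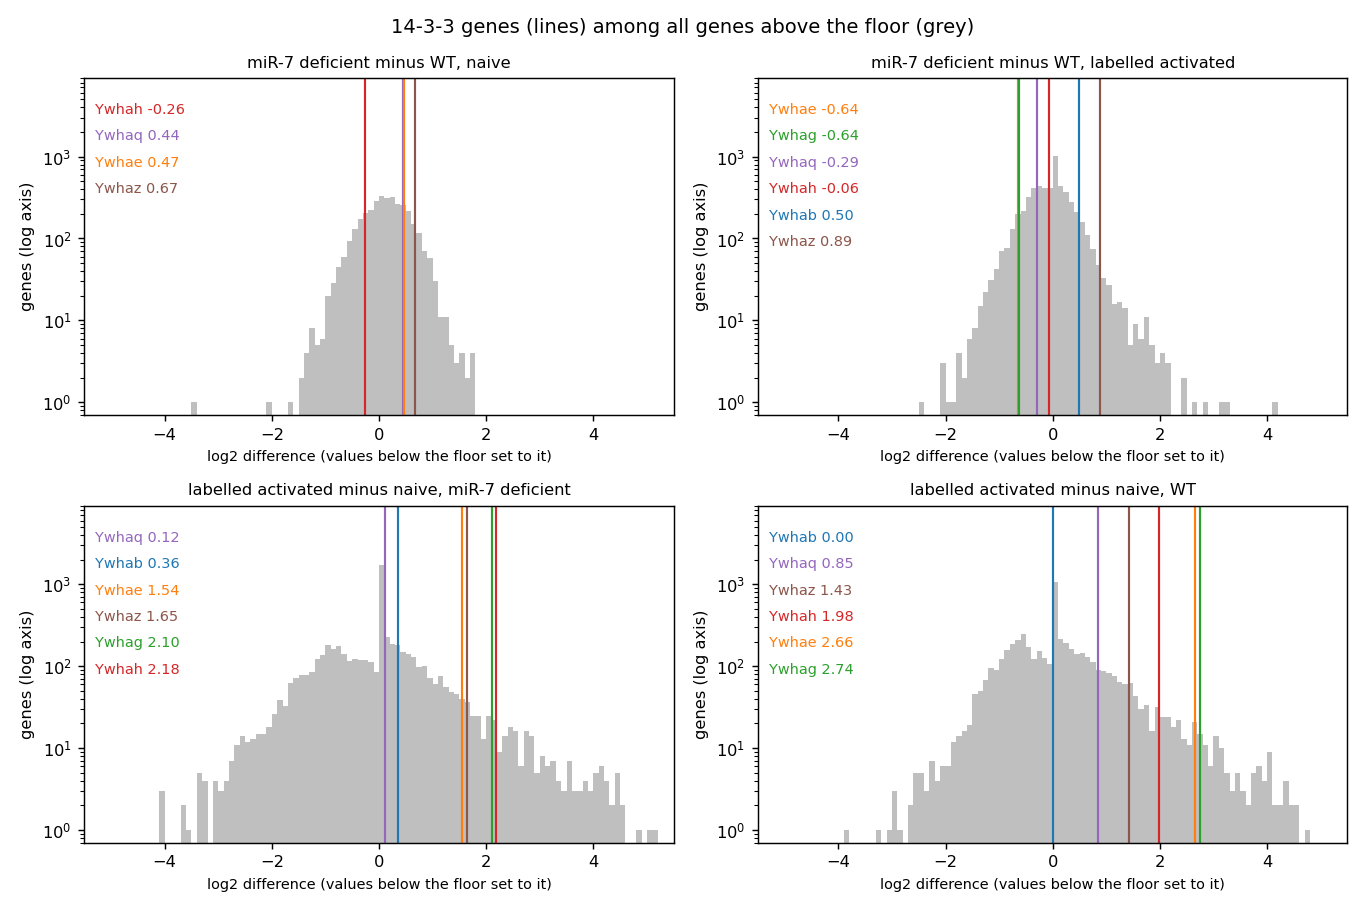
Histograms (log axis) of the log2 differences of all genes above the floor in each of the 4 comparisons. A coloured line gives each 14-3-3 gene above the floor, by its row with the highest mean, with its value. In the genotype comparisons (top) the lines lie between -0.64 and 0.89, with Ywhaz toward the right tail in cells labelled activated, and in the state comparisons (bottom) those of Ywhae, Ywhag, Ywhah and Ywhaz lie to the right of 1.

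By its row with the highest mean, each member with both arrays above the floor was placed among all genes above it. Genes with 1 side below the floor were kept at their bound or at 0, and other rows of a member were not placed. The shares below are thus lower limits for members above 0 and upper limits for members below 0. Between miR-7 deficient cells labelled activated and naive, 3.07% of genes had a larger difference than Ywhah, 5.22% than Ywhaz, 5.94% than Ywhae and 32.2% than Ywhaq. In wild type cells these shares were 4.93% for Ywhah, 8.69% for Ywhaz, 2.42% for Ywhae and 17.0% for Ywhaq. No share is given for Ywhag and Ywhab in these comparisons, since their values are bounds. Between genotypes in cells labelled activated, 2.88% of genes were further above 0 than Ywhaz, 9.81% than Ywhab, 54.6% than Ywhah, 71.7% than Ywhaq, 90.6% than Ywhag and 90.9% than Ywhae. In naive cells the shares were 9.94% for Ywhaz, 21.5% for Ywhae, 23.7% for Ywhaq and 81.1% for Ywhah. On these rows and by these lower limits, Ywhaz between genotypes in cells labelled activated stood about as far right as Ywhah between states in miR-7 deficient cells. Its difference was smaller. The other row of Ywhae differed between states by 0.11 in miR-7 deficient and -0.01 in wild type cells. Between genotypes in cells labelled activated, the other row above the floor gave 0.35 for Ywhae, 0.25 for Ywhag, 0.99 for Ywhah and 0.59 for Ywhaz. Those of Ywhaq went both ways.

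The genes whose profile over the 4 arrays was most like that of each member were found by the distance between log2 intensities centred on their mean, among genes of similar mean intensity. Nearest to Ywhag were Dnajb2 (distance 0.12), a chaperone gene, Ablim3 (0.13), an actin-binding protein gene, and Atp5g3 (0.19), of the mitochondrial ATP synthase. Nearest to Ywhah were Dtx3 (0.18), Aldh9a1 (0.23) and Wbp2 (0.31). Nearest to Ywhaz were the actin regulators Capzb (0.25) and Cfl1 (0.51) and the myosin light chain Myl6 (0.47). Nearest to Ywhae were Tuba1b (0.26), an alpha tubulin, Tle5 (0.31) and Slc25a4 (0.32), the mitochondrial ADP/ATP carrier. Nearest to Ywhaq were Gas5 (0.07), a noncoding RNA that hosts small nucleolar RNAs, Hnrnph1 (0.12) and Lhfpl5 (0.13), and nearest to Ywhab were Tbc1d20 (0.07), Tars2 (0.08) and Fbxl5 (0.08). With 4 points many genes come close, since 333 genes lay within 0.5 of Ywhab and 115 within 0.5 of Ywhaq, against 29 for Ywhag, 16 for Ywhah, 5 for Ywhae and 2 for Ywhaz.

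Known partners of 14-3-3 proteins and the kinases around them did not move as one group. Of 96 listed genes, 88 were measured and 33 stood above the floor on at least 1 array. Between cells labelled activated and naive, 5 were 2-fold higher and 2 lower in each genotype, out of 31 above the floor in miR-7 deficient and 26 in wild type cells, with a median of 0.00 in both. That is 7 of 31 and 7 of 26, beside 25.9% and 23.3% of all genes 2-fold apart in either direction. Both the counts and the median take in differences set to 0 at the floor step. Without a floor, the median over the 88 measured genes was 0.13 in miR-7 deficient and 0.12 in wild type cells. Of these genes, 47 were higher and 41 lower in miR-7 deficient cells, and 48 higher and 40 lower in wild type cells. Highest was Mapt, the microtubule protein tau, whose phosphorylated form binds 14-3-3. It read 7733 in miR-7 deficient and 7579 in wild type cells labelled activated, against 168 and 302, below the floor, in naive cells, at least 7.85-fold and at least 7.71-fold higher. Prkaca, the catalytic subunit of protein kinase A, which phosphorylates many 14-3-3 binding sites, read 7812 and 7207 against 1832 and 1369, or 4.26-fold and 5.26-fold higher. Mapk10, the JNK kinase of neurons, was at least 2.78-fold and at least 2.25-fold higher, and Araf, a RAF family kinase, at least 2.67-fold in miR-7 deficient and 2.81-fold (no bound) in wild type cells. Tsc2, the tuberin of mTOR control, was 2.42-fold higher in miR-7 deficient and 1.33-fold higher in wild type cells, and Sik3, a salt-inducible kinase, at least 1.77-fold in miR-7 deficient and 2.22-fold (no bound) in wild type cells.

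The partners 2-fold lower on the arrays labelled activated were Foxo1 and Trp53. Foxo1, a transcription factor of naive T cells that 14-3-3 holds in the cytoplasm, read 1797 in miR-7 deficient and 1689 in wild type cells labelled activated, against 4963 and 4150 in naive cells, a log2 difference of -1.47 and -1.30. Trp53, whose protein binds 14-3-3, differed by -1.71 and by at least 2.16-fold downwards in wild type cells. Among lymphocyte partners, Csf2rb, a cytokine receptor chain, was -0.34 and -0.68 apart, and the ubiquitin ligase Cblb had bounds of -0.85 and -0.56.

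Between genotypes 0 of the listed partners above the floor were 2-fold apart, of 29 in cells labelled activated and of 16 in naive cells, beside 4.6% and 2.83% of all genes, so the counts are near the background. In naive miR-7 deficient cells Trp53 (0.64), the death effector Bax (0.57) and the kinase Stk11 (0.56) were the furthest above 0 and Tsc2 (-0.34) the furthest below. In cells labelled activated Mark2 (0.92), a kinase of microtubule proteins, was the furthest above 0 and the kinesin Kif1c (-0.68) and the death factor Bad (-0.65), which 14-3-3 binds, the furthest below.

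**Figure D4:**
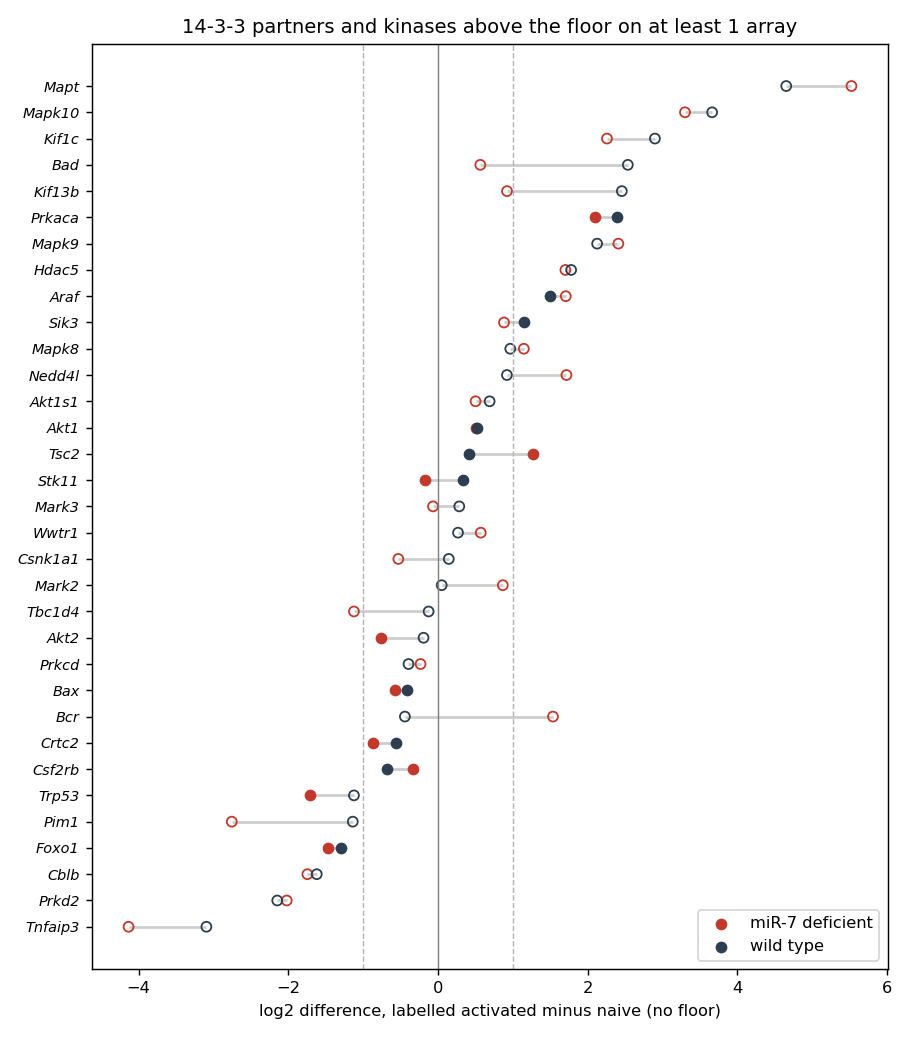
Log2 differences between cells labelled activated and naive, without a floor, of the 33 listed partners and kinases above the floor on at least 1 array, in miR-7 deficient (red) and wild type (dark) cells; filled points have both arrays above the floor. Mapt lies furthest right and Tnfaip3 furthest left in both genotypes, and the genes spread to both sides of 0. Tnfaip3 was below the floor on both wild type arrays and on the miR-7 deficient array labelled activated, so the size of its difference is not read.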

How the data were processed

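Per the labels' protocols, each of 4 RNA samples was labelled with Cy3 and hybridised to a NimbleGen array. Their growth and treatment text is about bacteria, not these cells, and was set aside. Per the submitters' processing notes the authors used RMA, with no version given. The deposited intensity is on a linear scale (21.7 to 64873), although the file headers call it log2 transformed. The authors' deposited tables add a fold ratio, the larger over the smaller intensity. All 283288 intensities in them equalled the value table (relative tolerance 1e-06), as did all 141644 recomputed ratios (1e-05). No deposited ratio is quoted.

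Intensities were taken to log2. Gene numbers matched a reference table (GRCm38.p6) for 31529 of 33663 named rows. Each gene was represented by its row with the highest mean, and all rows of the 14-3-3 genes are reported. Array coordinates name no build and are not printed. A log2 difference of at least 1 in size, above the floor, counted as 2-fold apart. The background share covers all genes above the floor on at least 1 of the 2 arrays. All 7 members are named. Of each partner list, the 2 members with the largest difference in each direction, or any member 2-fold apart, may be named, and of the genes most alike, the 3 nearest with a mean log2 intensity within 1, without antigen receptor segments, pseudogenes, and predicted or unnamed transcripts. The members, the lists and the rules were chosen with earlier results of these data known. The floor and difference steps were tested on simulated data. Alternatives were centring, lowess (fraction 0.3), quantile normalization of each pair alone, no floor, floors at the 99th and 75th percentile, and the mean or median of all rows of a gene. The number of arrays limits the precision. Work was done in Python 3.11.15 with pandas 2.3.3 and numpy 2.4.6, lowess from statsmodels 0.14.6, and figures from matplotlib 3.10.9.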

Additional observations from a re-analysis of the deposited data

Results flagged for a closer look

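For 2 rows above the floor on all 4 arrays, the genotype difference had opposite directions in cells labelled activated and in naive cells. Ywhae row AX775993 was 0.64 lower in miR-7 deficient cells labelled activated and 0.47 higher in miR-7 deficient naive cells on the log2 scale, a difference of differences of -1.11. Ywhaq row BC132252 was 0.29 lower in the cells labelled activated and 0.44 higher in the naive cells, a difference of differences of -0.73. Neither difference was tested, as each group has 1 array. The other Ywhae row (BC058686) gave 0.12 and Ywhaq row AK163237 gave 0.24, each higher in miR-7 deficient cells in both states. The sign of both thus rests on the row used. With the mean of all rows Ywhaq gave 0.13 and Ywhae -0.50.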

How the results depend on the processing

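No paired analysis was possible because each group has 1 array. Leaving out a replicate was not possible for the same reason. A median counted as close when it moved by less than the pooled SD of rows of a gene, 0.34 to 0.45 by comparison. The naive genotype median was thus close at 0.25, against 0.46 reported. A count was close when equal or little changed, as 3 or 5 against 4. The reported genotype counts, both 0, are among the cases. By these rules, the counts of members 2-fold apart and the medians of members above the floor stayed close in 58 of 64 cases under the 8 alternatives. The exceptions came mostly from the way rows of a gene were joined. With the mean of all rows, 2 members in place of 4 were 2-fold apart between miR-7 deficient cells labelled activated and naive, and the medians were 0.59 there and 1.01 in wild type cells, since the mean takes in a Ywhag row below every floor (Ywhag then 0.36 in miR-7 deficient and 0.69 in wild type cells) and the Ywhae row with little difference (Ywhae then 0.83 and 1.32). Between genotypes in cells labelled activated, the median was 0.30 with the mean and 0.36 with the median of all rows, against -0.18 for the rows with the highest mean. Without a floor, 1 member, Sfn, was 2-fold apart there, and Sfn made the count 5 in place of 4 between states in miR-7 deficient cells. All its intensities were below the floor, so its differences are not read. No member 2-fold apart changed direction under any alternative. Values of single members moved by more than the SD between rows of a gene in 28 of 217 cases.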
